A study of Bos taurus with 30 samples.

Results

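The mature miRNAs miR-103 (bta-miR-103) and miR-107 (bta-miR-107) were examined in the anterior pituitary, the lobe that secretes growth hormone, gonadotropins and other peptide hormones, of 30 Holstein-Friesian bull calves. They are 2 of the 1030 mature miRNAs in the deposited table and were chosen by name, as miRNAs that lie in the pantothenate kinase (PANK) genes and are linked to insulin. The choice was not made by their values, but earlier results of these data were known when it was made. From 2 weeks of age the 15 calves on the high plane of nutrition (HI) were given milk replacer at 10 L (1.5 kg) per day and concentrate ad libitum, whereas the daily allowance of the 15 calves on the moderate plane (MOD) was 4 L (0.5 kg) of milk replacer with 0.5 kg of concentrate. The tissue was taken at 12 weeks of age, and each calf gave 1 small RNA library. The calves came from several farms and sires, over which the diets were balanced, and the farm of a calf is not in the labels.

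A miRNA is a short RNA that guides Argonaute proteins to messenger RNAs, mainly through the bases near its 5′ end, and lowers the output of these messengers. Pantothenate kinases catalyse the first committed step of coenzyme A synthesis, and the miRNAs carried in their introns are processed from the same primary transcripts. In rodents, miR-103 and miR-107 are known to dampen insulin signalling in liver and fat, with the caveolin gene CAV1 among their targets. Both belong to the wider miR-15/miR-107 group, whose members share the bases AGCAGC near the 5′ end. The mature miR-103 and miR-107 are nearly identical and share their seed, differing only near the 3′ end. RefSeq, on ARS-UCD2.0, places the bovine gene MIR103-1 inside PANK3, MIR103-2 inside PANK2 and MIR107 inside PANK1, with no other gene around them. The mature product of MIR103-1 and MIR103-2 has a single entry, so that the share of each gene in the level of miR-103 cannot be told apart.

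Levels are given as CPM, the reads on a miRNA relative to a library total that had been adjusted by the trimmed mean of M-values (TMM) method. The reads behind these values could be recovered, and libraries held 6650492 to 11086524 reads on miRNAs. The endocrine markers miR-375, miR-7, miR-141 and miR-200c together made up 132546 to 227631 CPM in HI libraries and 152252 to 225810 CPM in MOD libraries. The 7 striated muscle markers measured summed to 58.1 to 157 CPM in HI and 60.3 to 84.3 CPM in MOD libraries. Of these, miR-1 and miR-206 did not exceed 3 reads in any library. The 6 neural markers measured summed to 766 to 1246 CPM in HI and 880 to 1159 CPM in MOD libraries. The 9 libraries with the highest calf label numbers (5 HI and 4 MOD) stand apart from the other 21 (10 HI and 11 MOD) in many miRNAs. This split was chosen in earlier work on these data from miR-99b, and not from miR-103 or miR-107. What the numbers stand for is not in the labels, and diet differences are therefore also given within these sets. In bulk tissue fewer cells that contain a miRNA and less of it per cell cannot be told apart.

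Both miRNAs were abundant and steady. Expression of miR-103 was at 3717 ± 232 CPM in the HI group, against 3781 ± 262 CPM in the MOD group (SD over 15 calves each). HI libraries held 25806 to 41163 reads on it and MOD libraries 27332 to 35977. Among all miRNAs of a library miR-103 stood between rank 37 and rank 41 in level, and it took 0.376% ± 0.0369 of the reads (SD, n = 30). In HI calves its lowest, median and highest level were 3235, 3714 and 4098 CPM. In MOD calves they were 3230, 3843 and 4171 CPM. The ranges overlapped over most of their length, as 2 MOD calves lay above the highest HI calf and 1 MOD calf below the lowest.

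Expression of miR-107 was at 1590 ± 94.5 CPM in the HI group, against 1543 ± 110 CPM in the MOD group (SD over 15 calves each). HI libraries held 11492 to 17480 reads on it and MOD libraries 10557 to 14814. Its rank lay between 54 and 65, and it took 0.157% ± 0.0162 of the reads (SD, n = 30). In HI calves its lowest, median and highest level were 1388, 1604 and 1730 CPM. In MOD calves they were 1361, 1558 and 1717 CPM. Here 2 HI calves lay above the highest MOD calf and 2 MOD calves below the lowest HI calf, so that these ranges overlapped as well. Levels of different miRNAs in small RNA libraries also depend on how well each sequence is ligated, so that the order of miR-103 above miR-107, which held in 30 of 30 calves, is one of reads.

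**Figure D1:**
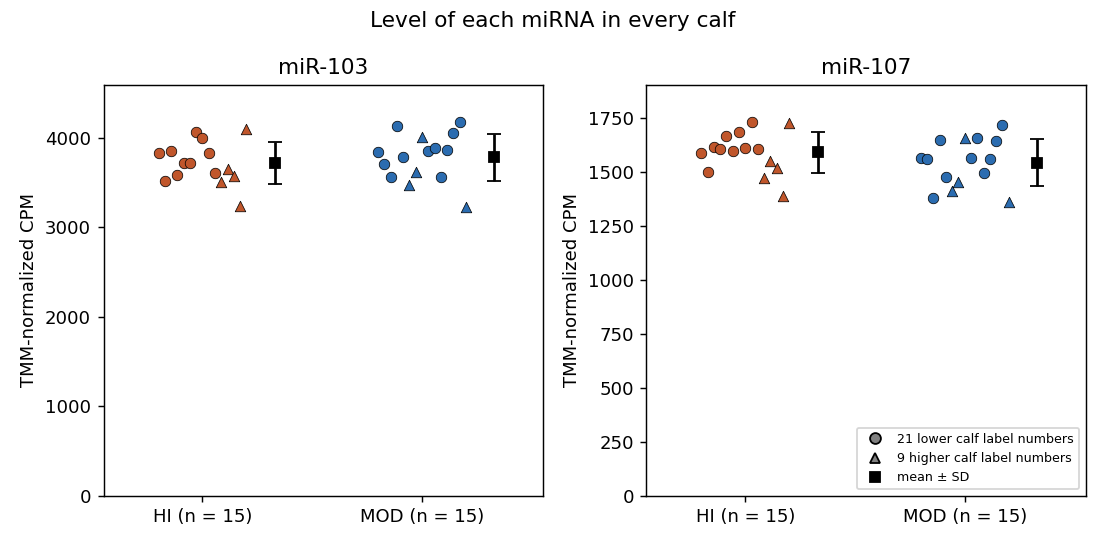
Level of miR-103 (left) and miR-107 (right) in TMM-normalized CPM, with 1 point per calf, circles for the 21 lower and triangles for the 9 higher calf label numbers, and squares with bars for the mean ± SD of each diet (n = 15). The diets overlap in both panels, with means of 3717 and 3781 CPM for miR-103 and of 1590 and 1543 CPM for miR-107 in HI and MOD calves.

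Neither miRNA passed the test between diets. The comparison addressed whether the plane of nutrition changed the level of these insulin-linked miRNAs, with limma on log2(CPM + 1) over the 419 miRNAs that passed a filter on low counts. At FDR < 0.1, 15 of the 419 miRNAs passed (3.58%), and 2 of them (0.477%) also had a fold change above 1.5. The log2 fold change of miR-103 in HI against MOD calves was -0.024 (standard error 0.039, 95% interval -0.10 to 0.055, FDR = 0.913). That of miR-107 was 0.045 (standard error 0.039, 95% interval -0.034 to 0.12, FDR = 0.732). Both intervals lie inside the range set by a fold change of 1.5 in either direction. The MOD median was exceeded by 4 of 15 HI calves for miR-103 and by 10 of 15 for miR-107. From the recovered reads, the quasi-likelihood test of edgeR gave log2 fold changes of -0.0085 (FDR = 0.925) and 0.060 (FDR = 0.553).

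The sign of these small differences depended on how the libraries were scaled. On total counts the log2 fold changes were 0.039 for miR-103 and 0.11 for miR-107, and with upper quartile normalization they were -0.12 and -0.054. None of these passed FDR < 0.1. The scaling moved the middle of all miRNAs as well, the median log2 fold change over the 419, which was 0.016 with the deposited scaling, 0.071 on total counts and -0.074 with upper quartile normalization. Relative to that median, miR-103 was at -0.040, -0.032 and -0.050 and miR-107 at 0.029, 0.037 and 0.020 in the same order. Thus miR-103 lay below and miR-107 above the middle of all miRNAs in each of these scalings. A change of scaling shifts all miRNAs of a library alike, so that this order is kept almost by construction and is not a separate result.

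**Figure D2:**
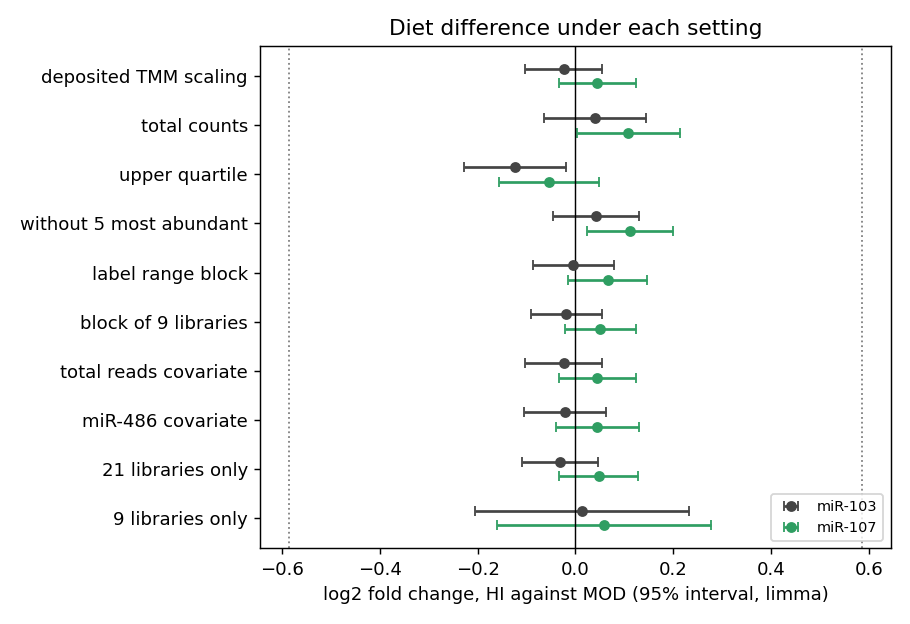
Log2 fold change of miR-103 (grey) and miR-107 (green) between HI and MOD calves with its 95% interval from limma, for 10 ways of scaling, blocking or selecting the libraries, with dotted lines at a fold change of 1.5. In each of them miR-107 lies to the right of miR-103 while both stay between the dotted lines, from -0.12 to 0.042 for miR-103 and from -0.054 to 0.11 for miR-107. Among the scalings this order is kept almost by construction, since a scaling shifts both miRNAs alike.

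Summed over both miRNAs, the level was 5307 ± 315 CPM in the HI group, against 5324 ± 366 CPM in the MOD group (SD over 15 calves each). A read given to either miRNA alone counts alike in this sum, whereas a read counted for both would enter it more than once. How such reads were counted is not given in the sources used here. The log2 fold change of the sum was -0.0037 (standard error 0.038, 95% interval -0.081 to 0.074, FDR = 0.984 from limma). The summed level differed by less than the spread between calves.

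The ratio of both miRNAs did differ between diets. The ratio of miR-103 to miR-107, from which the scaling of the libraries cancels, was 2.34 ± 0.0770 in HI calves and 2.45 ± 0.0688 in MOD calves (SD, n = 15 each). The lowest, median and highest ratio were 2.21, 2.35 and 2.48 in HI calves. In MOD calves they were 2.34, 2.46 and 2.59. A total of 14 of the 15 HI calves lay below the MOD median, 6 HI calves lay below the lowest MOD calf, and 5 MOD calves lay above the highest HI calf. On the log2 scale the difference was -0.069 (standard error 0.016). The mean ratio was 0.953 times that of MOD calves, with p = 0.00014 in a permutation test (two-sided, 100000 resamples) and p = 0.00056 after Benjamini-Hochberg adjustment over the 4 single values tested (both miRNAs, their sum and their ratio). The other 3 had adjusted p of 0.423 to 0.916 in the same permutation test. The difference is larger than its standard error between calves, and small beside a fold change of 1.5.

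The ratio was lower in HI calves in both sets of libraries. Its log2 difference was -0.080 in the 21 libraries with lower label numbers (p = 0.00239 by exact permutation). There the ratio ran from 2.21 to 2.48 in 10 HI calves and from 2.34 to 2.59 in 11 MOD calves. The log2 difference was -0.045 in the remaining 9 (p = 0.0238 by exact permutation), with ratios of 2.33 to 2.38 in 5 HI calves and of 2.37 to 2.49 in 4 MOD calves. The difference between these 2 values was not past the threshold (0.034, permutation test within diets, p = 0.335). The ratio itself was much the same in the 9 libraries, at 2.39 ± 0.0526 (SD, n = 9), as in the 21, at 2.40 ± 0.106 (SD, n = 21).

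A test that borrows its error from other miRNAs gave a weaker result for the ratio. In limma over the log2 ratios of miR-103 to each of the 418 other tested miRNAs, a setting chosen after seeing the data, 9 ratios passed FDR < 0.1 (2.15%), and the ratio to miR-107 did not (log2 difference -0.069, standard error 0.028, unadjusted p = 0.0210, FDR = 0.303). With miR-107 as the base, 13 of 418 ratios passed (3.11%), and that to miR-103 had an FDR of 0.244. The ratio of miR-103 to miR-107 had the smallest within-diet spread of the 418, with an SD of 0.044 on the log2 scale against a median of 0.27. The next smallest for miR-103 was its ratio to miR-25, with an SD of 0.082. Reads counted for both miR-103 and miR-107 would narrow the spread of the ratio between them, and the share of such reads was not tested. The standard error of the difference was 0.016 between the calves and 0.028 in limma, which moves the error of each ratio toward that of the others.

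**Figure D3:**
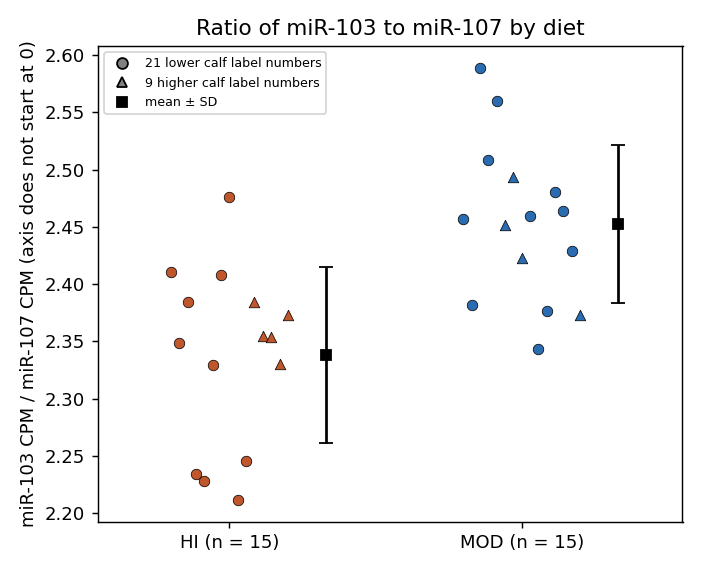
Ratio of miR-103 CPM to miR-107 CPM in each calf by diet, with circles for the 21 lower and triangles for the 9 higher calf label numbers, and squares with bars for the mean ± SD (n = 15), on an axis that does not start at 0. HI calves run from 2.21 to 2.48 and MOD calves from 2.34 to 2.59, with means of 2.34 and 2.45.

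Counting error was small beside these spreads. In each library the counting error of the log2 ratio was 0.0130 to 0.0165, against an SD between calves of 0.048 in HI and 0.040 in MOD calves. These errors cover counting only, since PCR reads without molecular identifiers are not independent molecules. The number of reads on miR-107 was whole in 30 of 30 libraries, within 0.01 of a read. That of miR-103, which has 2 genes, was whole in 20 libraries and ended in 0.5 of a read in the other 10. How reads too short to tell miR-103 and miR-107 apart were counted is not given in the sources used here, and their part in the ratio was not tested.

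Of the marker lists, the summed red blood cell miRNAs (miR-486, miR-451 and miR-144) had the smallest p between diets (permutation test, p = 0.0339, not adjusted over the lists). They were at 10578 to 24489 CPM in HI calves (median 17406) and 15557 to 27422 CPM in MOD calves (median 20588), a log2 difference of -0.26. None of the 3 passed FDR < 0.1 in limma, and their signs differed, with log2 fold changes of -0.27 for miR-486 (FDR = 0.274), 0.55 for miR-451 (FDR = 0.190) and 0.46 for miR-144 (FDR = 0.115). In the quasi-likelihood test of edgeR miR-451 (log2 fold change 0.66, FDR = 0.0904) and miR-144 (0.68, FDR = 0.0515) did pass, both higher in HI calves, and miR-486 did not (-0.23, FDR = 0.354). Over all 419, 14 were higher and 6 lower at FDR < 0.1 in that test. The part of miR-451 and miR-144 in the ratio of miR-103 to miR-107 was not tested. With miR-486 as a covariate, a setting chosen after seeing the data, the log2 difference of the miR-103 to miR-107 ratio was -0.066 (permutation test, p = 0.00071). Across the calves, the ratio and miR-486 gave r = 0.310 (permutation p = 0.0954, adjusted p = 0.203) and rho = 0.349 (permutation p = 0.0584, adjusted p = 0.142, n = 30). Without the 2 calves farthest from the median of miR-486, r was 0.468. Within the diets r was -0.034 in HI calves (permutation p = 0.903) and 0.299 in MOD calves (permutation p = 0.281), and both changed sign without the 2 farthest calves (0.446 and -0.104). The ratio and the log2 total reads gave r = 0.026 (permutation p = 0.893) and rho = -0.084 (permutation p = 0.658, n = 30), and r was -0.109 without the 2 farthest calves. With log2 total reads as a covariate, also chosen after seeing the data, the log2 difference of the ratio was -0.069 (permutation test, p = 0.00017).

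Across calves miR-103 and miR-107 varied together. On the log2(CPM + 1) scale Pearson's r was 0.832 and Spearman's rho 0.807 over the 30 calves (permutation p = 1e-05 for both, the smallest that 100000 resamples can give). Without the 2 calves farthest from the median of miR-103, r was 0.761. Within diets r was 0.856 in HI calves and 0.924 in MOD calves. Within the sets it was 0.634 in the 21 libraries and 0.964 in the other 9, and the permutation p of r, adjusted over the 17 relations computed, was at most 0.00487 in these 5. Spearman's rho was 0.618 to 0.950 in the same 4 subsets, and r without the 2 farthest calves was 0.540 to 0.892. In the 10 HI calves of the 21 libraries r was 0.574 (permutation p = 0.0787), with rho = 0.515 (permutation p = 0.135), and r was 0.143 without the 2 farthest calves. Reads counted for both miRNAs would add to such a relation, and their share was not tested.

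**Figure D4:**
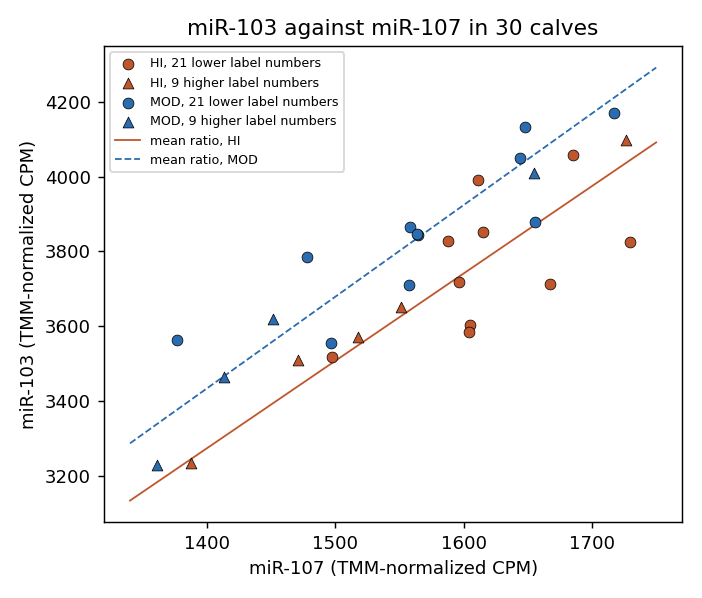
Level of miR-103 against that of miR-107 in the 30 calves, in TMM-normalized CPM, with HI calves in orange and MOD calves in blue, circles for the 21 lower and triangles for the 9 higher label numbers, and lines for the mean ratio of each diet (2.34 and 2.45). The points follow a rising band (r = 0.832) in which the MOD calves lie mostly above the HI calves.

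Of the 418 other tested miRNAs, miR-107 had the highest correlation with miR-103, and the reverse also held. Next for miR-103 came let-7i (r = 0.658), miR-181b (r = 0.638) and miR-505 (r = 0.631), and next for miR-107 came let-7i (r = 0.593), let-7b (r = 0.541) and miR-93 (r = 0.540), over the 30 calves, which share the scaling of their library. These are descriptions, chosen as the highest of 418. In the 21 libraries the relation of miR-107 to let-7b was 0.262, against 0.718 in the other 9. None of these 5 miRNAs passed FDR < 0.1 between diets.

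The spread of both miRNAs between calves was among the smallest of the miRNAs tested. The within-diet SD of log2(CPM + 1) was 0.096 for each, against a median of 0.25 over the 419, and 6 of the 419 had a smaller SD than miR-103 and 5 a smaller one than miR-107. Of the 71 miRNAs with a mean of at least 1000 CPM, whose median SD was 0.16, the same 6 and 5 were below them. The miRNAs next to miR-103 in mean level varied more. These were miR-132, a miRNA that responds to neuronal and hormonal stimulation, at 4057 ± 831 CPM (SD, n = 30) and miR-16b at 3231 ± 362 CPM (SD, n = 30), and they lay above miR-103 in 19 and 5 of the 30 calves. Next to miR-107 stood miR-23b-3p at 1661 ± 264 CPM and miR-148b at 1557 ± 109 CPM (SD, n = 30 each), of which miR-148b lay above miR-107 in 15 of the 30 calves.

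Mean levels of both miRNAs were lower in the 9 libraries with the highest label numbers, a difference that did not pass the test. With diet in the model, the log2 difference of the 9 from the 21 was -0.085 for miR-103 (standard error 0.039, FDR = 0.127 from limma) and -0.090 for miR-107 (standard error 0.039, FDR = 0.109). In the same model 109 of 419 miRNAs passed FDR < 0.1 (26%). That share is a description, since the split itself was chosen from miR-99b in these data. The level of miR-103 was 3599 ± 299 CPM in the 9 libraries and 3814 ± 191 CPM in the 21, and that of miR-107 was 1504 ± 123 CPM and 1593 ± 84.1 CPM (SD, n = 9 and 21). In a test of whether the diet difference itself depended on the set, none of the 419 passed FDR < 0.1 in limma (0%, with 21 at an unadjusted p under 0.05). The FDR of this term was 0.889 for miR-103 and 0.971 for miR-107.

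Within the miR-15/miR-107 group, miR-103 had the highest level and miR-107 the third. In order of mean level over the 30 calves the group ran miR-103 (3749 CPM), miR-16b (3231 CPM), miR-107 (1566 CPM), miR-16a (1472 CPM), miR-424-5p (1373 CPM), miR-15a (393 CPM), miR-195 (134 CPM), miR-15b (128 CPM), miR-497 (56.0 CPM) and miR-503-5p (12.7 CPM). Ranges overlapped between some neighbours in this order. Expression of miR-103 was above that of miR-16b in 25 of 30 calves, miR-107 was above miR-16a in 21, miR-16a above miR-424-5p in 21, and miR-195 above miR-15b in 15. The other 5 pairs of neighbours had ranges apart from each other, so that miR-107 lay below miR-16b in 30 of 30 calves. The members of this group other than miR-103 and miR-107 are known for restraining cell cycle genes such as the cyclins, and the pairs miR-195 with miR-497 and miR-424 with miR-503 each come from a shared cluster.

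Of the 8 other members, all tested, 2 rose in HI calves and 0 fell at FDR < 0.1, beside 1.91% higher and 1.67% lower over all 419. That background turned with the scaling, from 8 higher and 7 lower miRNAs to 16 and 2 on total counts and to 3 and 26 with upper quartile normalization. Over the 8 the median log2 fold change was -0.0046, beside 0.016 over all miRNAs tested, and on total counts these medians were 0.058 and 0.071. Expression of miR-195 was at 153 ± 33.8 CPM in the HI group, against 114 ± 17.5 CPM in the MOD group, and that of miR-497, its cluster partner, at 62.9 ± 6.94 and 49.1 ± 10.3 CPM (SD over 15 calves each). Their log2 fold changes of 0.41 (FDR = 0.0177 from limma) and 0.37 (FDR = 0.0256) were under the threshold of 1.5-fold. With upper quartile normalization miR-497 no longer passed (FDR = 0.140). In the 9 libraries alone neither did, where 0 of all 430 miRNAs tested passed. The remaining 6 ran from -0.10 for miR-16a to 0.11 for miR-503-5p, with FDR of 0.639 to 0.935. The abundant members miR-103, miR-107, miR-16a and miR-16b thus had log2 fold changes between -0.10 and 0.045, none of which passed.

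**Figure D5:**
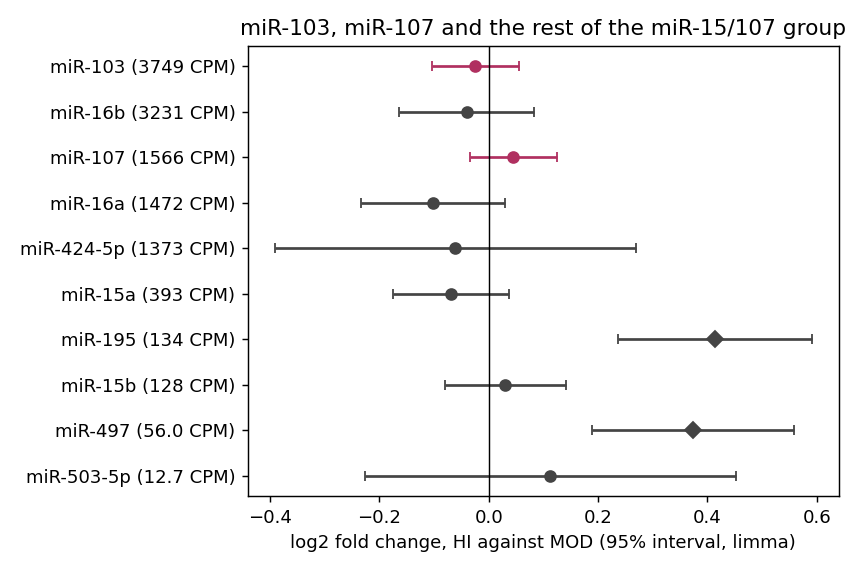
Log2 fold change between HI and MOD calves with its 95% interval from limma for miR-103 and miR-107 (red) and the 8 other members of the miR-15/miR-107 group (grey), ordered by mean CPM, with diamonds for those at FDR < 0.1. Only miR-195 (0.41) and miR-497 (0.37) are diamonds in this fit, and miR-103 (-0.024) and miR-107 (0.045) lie close to 0.

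Other miRNAs with a known role in insulin secretion or response were taken as a list of 23, of which 22 have an entry in the table and 21 were tested. Of these 21, 1 was higher and 2 were lower in HI calves at FDR < 0.1, beside 1.91% higher and 1.67% lower over all 419, and the median log2 fold change was -0.044, beside 0.016 over all miRNAs tested (0.019 and 0.071 on total counts). The higher one was miR-378, which lies in the gene of a mitochondrial coactivator, PPARGC1B (309 ± 57.6 CPM in the HI group, 254 ± 40.9 CPM in the MOD group, log2 fold change 0.28, FDR = 0.0874 from limma). The lower ones were miR-29a, which acts on insulin signalling and extracellular matrix genes (2638 ± 143 and 2914 ± 208 CPM, log2 fold change -0.14, FDR = 0.0365), and miR-33a, which lies in the sterol regulator gene SREBF2 (9.25 ± 1.02 and 11.01 ± 1.34 CPM, log2 fold change -0.23, FDR = 0.0396). These values are mean ± SD over 15 calves each, and none of the 3 reached a fold change of 1.5. On total counts miR-29a and miR-33a no longer passed (FDR = 0.411 and 0.183), and with upper quartile normalization miR-378 did not (FDR = 0.2998). Under the latter 0 of the 21 were higher and 5 lower, beside 3 higher and 26 lower of all 419. There let-7f (FDR = 0.0480), let-7g (FDR = 0.0246) and miR-29c (FDR = 0.0774) from limma joined miR-29a and miR-33a. With a block for the label number range 0 of the 21 passed in either direction, beside 12 of all 419. This range sorts the calves into 4 groups by inner digits of the label number, and not by its size. The higher miR-378 also missed the threshold in 14 of the 30 fits without 1 calf. The most abundant of the list, miR-375, which restrains insulin secretion in the pancreatic islet, was at 143338 ± 29171 CPM in the HI group, against 148775 ± 20390 CPM in the MOD group (SD over 15 calves each, FDR = 0.873 from limma).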

How the data were processed

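Small RNA libraries of 15 HI and 15 MOD calves were grouped by their labels. The authors trimmed adapters with Cutadapt, kept reads of 15 to 28 bases, filtered out reads of rRNA, tRNA, snRNA and snoRNA, and quantified known bovine miRNAs of miRBase with miRDeep2 and Bowtie on the genome build ARS-UCD1.2. Versions in the submitters' processing notes are FastQC 0.11.8, cutadapt 2.6, R 3.4 and edgeR 3.5. The deposited table used here holds a signal per miRNA, CPM scaled by TMM factors. The spacing of low values gave back the reads (93.7% to 97.8% of the low values of a library were whole within 0.01 of a read), and recovery was tested on simulated libraries. Factors computed from these reads with edgeR were within 1.9e-05 of those in the deposited values. Depth was 6650492 to 11086524 reads on miRNAs, so that 3 reads were worth 0.266 to 0.419 CPM.

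The main test was limma 3.58.1 (trend) in R 4.3.3 on log2(CPM + 1), over the 419 miRNAs kept by the filterByExpr function of edgeR, with Benjamini-Hochberg adjustment over all of them and the paper's thresholds (FDR < 0.1, fold change > 1.5). In simulated data for this comparison and these 419 miRNAs, 123 of 200 miRNAs changed by a fold of 1.2 were called in the right direction, and 189 of 200 at a fold of 1.5. Of the unchanged miRNAs, 9 and 13 were called. The simulation changed 200 of the 419 at once, whereas 15 passed FDR < 0.1 in the real data. It also held no difference between the sets of libraries. These shares therefore do not carry over to the results for miR-103 and miR-107. Single values were compared with two-sided permutation tests of 100000 resamples, exact within the sets of 21 and 9 libraries. The test of whether the diet difference of the ratio depended on the set used 20000 resamples. edgeR 4.0.16 and DESeq2 1.42.0 were run on rounded recovered reads. Other alternatives changed the scaling, filter, pseudocount and covariates (calf label number range, set of 9 libraries, total reads, miR-486), or left out each calf in turn. The label number range has 4 groups, set by inner digits of the number and not by its size.

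The named miRNAs are miR-103, miR-107, the lists given, the 3 most correlated with each, the neighbours in level and blood markers. Members and lists were chosen with earlier results of these data known. The marker lists had 3 neural, 4 pituitary endocrine, 3 red blood cell, 4 striated muscle and 5 white blood cell members that were tested. Of these, 0 passed FDR < 0.1 in limma, beside 15 of all 419. In edgeR's quasi-likelihood test 14 of the 419 were higher and 6 lower in HI calves at FDR < 0.1. The higher ones included miR-144 (FDR = 0.0515), miR-451 (FDR = 0.0904) and the muscle miRNA miR-208b (FDR = 0.0904). The unadjusted permutation p of the summed lists other than red blood cell was 0.214 to 0.641. RefSeq genes of ARS-UCD2.0 gave names and neighbours. Mature sequences, target sites and the mRNA and protein data were not used here.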

Additional observations from a re-analysis of the deposited data

How the results depend on the processing

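No paired analysis was possible because no replicate number in the labels joins a HI to a MOD calf. Each library held 10557 reads or more on each miRNA, and the comparisons were not repeated at a lower depth. In the 9 libraries alone the 95% intervals reached 0.23 for miR-103 and 0.28 for miR-107. Neither miRNA nor their sum passed FDR < 0.1 under any of the 15 alternatives. With some scalings the 95% interval from limma did leave out 0. For miR-107 this held on total counts and without the 5 most abundant miRNAs in the library size (0.023 to 0.20). With upper quartile normalization it held for miR-103 and for the sum (-0.21 to -0.00017). The sign of miR-103 (-0.024) turned on total counts (0.039), without the 5 most abundant miRNAs in the library size (0.042) and in the 9 libraries (0.013), and that of miR-107 (0.045) with upper quartile normalization (-0.054). The sum (-0.0037) changed sign on total counts (0.060), without the 5 most abundant miRNAs in the library size (0.063), with edgeR's quasi-likelihood and exact tests (0.0053 each), with a block for the label number range (0.017) or for the 9 libraries (0.0020), and in the 9 libraries (0.026). For the scalings the median of all miRNAs moved in the same direction. It did so as well in edgeR's quasi-likelihood and exact tests (0.041 each, from 0.016 in the main fit). The cause of these changes of sign was not tested. Leaving out 1 calf gave -0.040 to -0.010 for miR-103, 0.032 to 0.059 for miR-107 and -0.019 to 0.010 for the sum, which was above 0 in 9 of 30 such fits. The log2 difference of the miR-103 to miR-107 ratio (-0.069) kept its sign under 7 of 7 alternatives (3 of them, total reads and miR-486 as covariates and limma over ratios, chosen after seeing the data), from -0.080 in the 21 libraries to -0.045 in the other 9, and without any 1 calf (-0.075 to -0.063, permutation p of at most 0.00039). It missed the threshold in limma over the ratios, from the side of miR-103 (-0.069, FDR = 0.303) as of miR-107 (FDR = 0.244). The median of the 8 other members of the miR-15/miR-107 group ran from -0.10 with upper quartile normalization to 0.062 without the 5 most abundant miRNAs in the library size, and from -0.019 to 0.014 without 1 calf.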
